A study of Mus musculus with 6 samples.

Results

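CTCF peaks on chromosomes 11 and 19 were taken from 3 chromatin immunoprecipitation and sequencing (ChIP-seq) lists and set against the peaks of chromosomes 3 and 12. The members are every peak of chromosomes 11 and 19 in those lists, chosen by chromosome name alone: 10815 of 102348 peaks. Clone D had 3278 of its 29769 peaks there (11.01%), clone C8 3526 of 32308 (10.9%) and wild type 4011 of 40271 (9.96%). Chromosome 11 held 2319, 2519 and 2854 of these peaks in clone D, clone C8 and wild type, and chromosome 19 held 959, 1007 and 1157. Joined where they overlapped, the peaks formed 4750 regions, 9.82% of the 48367 regions in the genome.

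All cells were G1E-ER4, a mouse erythroblast line without GATA1 that carries GATA1 fused to the estrogen receptor, kept for 24 hours in 100 nM estradiol to switch the fusion protein on and start maturation. Clones D and C8 are separate CRISPR/Cas9 derivatives of the line with no detectable BRD2, each 1 clone and 1 ChIP library. Wild type is G1E-ER4 with BRD2 intact, also 1 library. The comparison of the series asks whether CTCF sits at the same sites when BRD2 is missing.

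CTCF is a DNA-binding protein with a row of zinc fingers that reads a long motif. It stops cohesin as cohesin extrudes loops, and so marks loop anchors, domain borders and insulators between neighbouring genes. Many CTCF sites lie near promoters and in gene-rich chromatin. BRD2, a BET family protein, binds acetylated histones through its bromodomains and has been found at CTCF sites. The description of chromosomes 11 and 19 as gene-dense was checked against the RefSeq gene table of assembly GRCm38.p6. The mean distance between the starts of neighbouring protein-coding genes was 75.9 kb on chromosome 11 and 82.3 kb on chromosome 19, against 159.5 kb on chromosome 3 and 177 kb on chromosome 12. Chromosomes 11 and 19 took places 2 and 3 among the 19 autosomes by this measure, shortest first, chromosome 3 place 16 and chromosome 12 place 19.

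Read totals are not part of the deposited lists. Sequencing depth is therefore unknown, and a site missing from a list was not called there rather than shown to be free of CTCF. The wild-type list is longer and has more weak peaks than either clone list. Wild type has 1 library, so BRD2 loss itself could not be tested, and its part in any difference cannot be told apart from that of the library or the clone. Comparisons between chromosomes were repeated in each of the 3 libraries, and an exact permutation test over 3 libraries cannot give a two-sided p below 0.25.

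Chromosome 11 had the highest CTCF peak density of the 19 autosomes in every library, and chromosome 19 the second highest. Density was counted over the 2 Mb windows lying wholly between the first and last called base of a chromosome, which came to 116 Mb on chromosome 11 and 56 Mb on chromosome 19. Chromosome 11 had 19.2 peaks per Mb in clone D, 20.9 in clone C8 and 23.7 in wild type. Chromosome 19 had 15.9, 16.9 and 19.5 peaks per Mb in the same libraries. The next densest autosome reached 14.5 in clone D (chromosome 9), 15.5 in clone C8 and 18.4 in wild type (chromosome 17 in both). Chromosome 3 had 9.18, 9.86 and 12.7 peaks per Mb in clone D, clone C8 and wild type, and chromosome 12 had 10.4, 10.8 and 15.04. On chromosomes 11 and 19 together the density was 18.1, 19.6 and 22.3 peaks per Mb, against 9.72, 10.3 and 13.7 on chromosomes 3 and 12.

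The ratio of the densities was 1.86 in clone D, 1.91 in clone C8 (mean 1.89 ± 0.0322, SD, n = 2) and 1.63 in wild type. It was above 1 in 3 of 3 libraries (exact sign-flip permutation test over libraries, two-sided p = 0.25, the smallest possible). The wild-type ratio was lower than that of either clone by more than the clones differed from each other. That order was turned round among peaks of a −log10 p of at least 10. The ratio there was 1.87 in clone D, 1.89 in clone C8 and 1.94 in wild type.

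**Figure D1:**
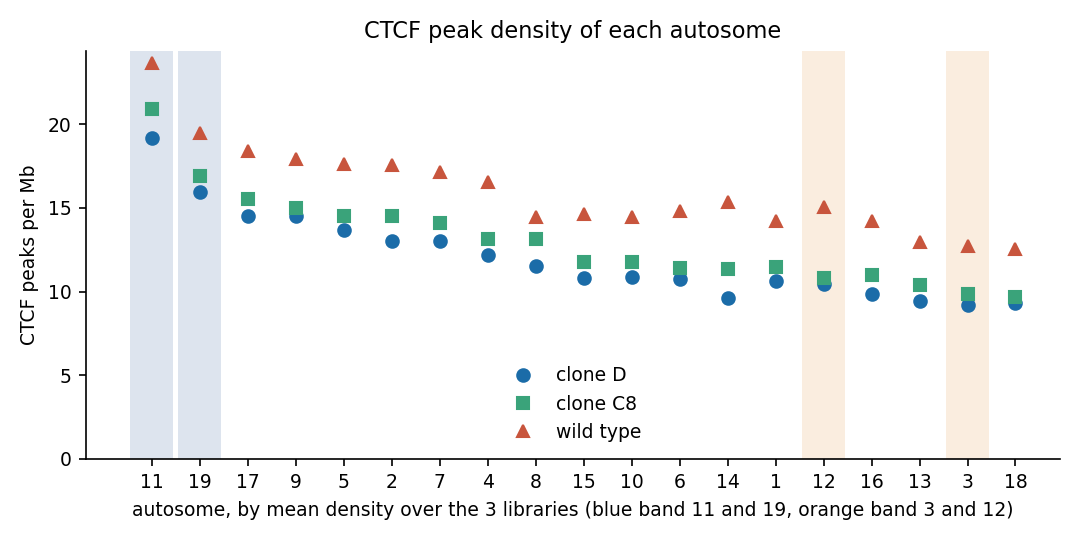
CTCF peaks per Mb (y axis) on each of the 19 autosomes (x axis, ordered by the mean over libraries), 1 point per library. Chromosome 11 lies highest in all 3 libraries (19.2, 20.9 and 23.7 in clone D, clone C8 and wild type) and chromosome 19 second, while chromosomes 3 and 12 lie near the low end in the clones.

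The high density was spread unevenly along both chromosomes. Over the 58 windows of chromosome 11, the lowest, median and highest densities were 0, 17.3 and 54.0 peaks per Mb in clone D. They were 0.5, 18.3 and 58.5 in clone C8 and 3.0, 19.8 and 60.5 in wild type. Neither chromosome was dense throughout. Over the 28 windows of chromosome 19 the same values were 1.0, 13.3 and 49.0 in clone D. They were 1.0, 14.0 and 55.5 in clone C8 and 2.0, 15.0 and 62.0 in wild type. The median window of chromosome 3 had 7.0, 8.0 and 11.5 peaks per Mb in clone D, clone C8 and wild type, and that of chromosome 12 had 8.0, 8.75 and 12.5. Windows above 30 peaks per Mb numbered 16, 19 and 23 of 86 on chromosomes 11 and 19 in clone D, clone C8 and wild type, against 4, 3 and 8 of 135 on chromosomes 3 and 12. Windows below 5 peaks per Mb numbered 9, 7 and 3 of 86, against 43, 38 and 11 of 135.

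**Figure D2:**
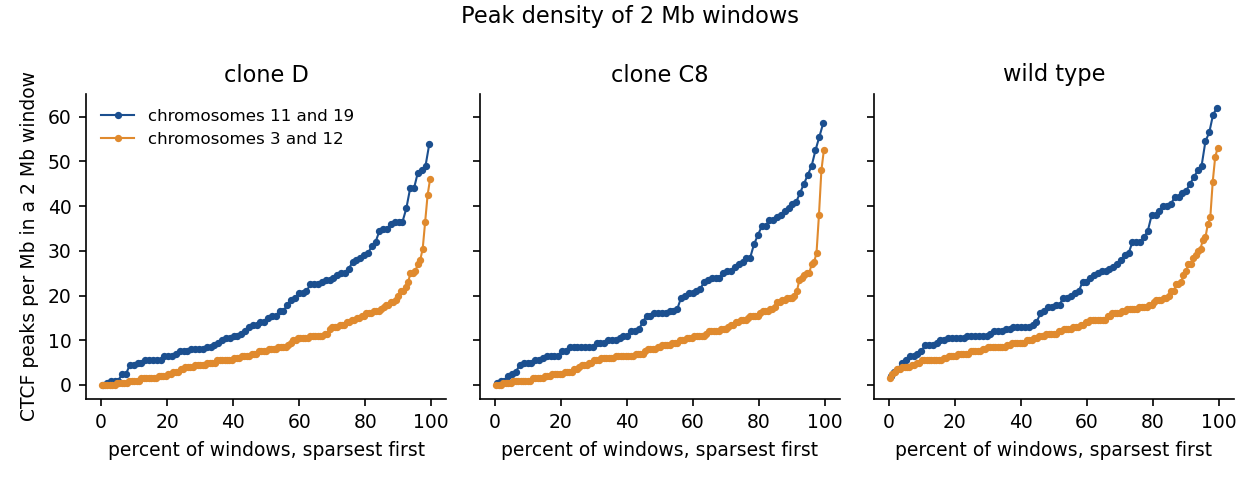
CTCF peaks per Mb (y axis) in each 2 Mb window, ordered from the sparsest to the densest (x axis, percent of windows), with 86 windows on chromosomes 11 and 19 and 135 on chromosomes 3 and 12. The blue curve lies above the orange one over most of its course. Medians are 14.5, 16.0 and 17.8 against 7.5, 8.5 and 11.5 in clone D, clone C8 and wild type. The low ends of the curves lie close in every library, with lowest windows of 0, 0.5 and 2.0 against 0, 0 and 1.5.

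The 3 libraries traced nearly the same profile along chromosomes 11 and 19. Across the 86 windows, Pearson's r was 0.992 between the counts of clone D and clone C8, 0.985 between clone D and wild type, and 0.989 between clone C8 and wild type. These are descriptions: the windows share chromosomes and libraries. Clone D had fewer peaks than wild type in 83 of 86 windows and clone C8 in 77, where whole lists of 29769, 32308 and 40271 peaks were compared. By share of its own list, clone D was higher than wild type in 60 of the 86 windows and clone C8 in 63, a scaling added after the data were seen. On chromosomes 3 and 12, clone D was higher by share of list in 56 of 135 windows and clone C8 in 48. On chromosomes 3 and 12 the r values in the same order were 0.983, 0.968 and 0.969 over 135 windows.

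The densest window on chromosome 11 (chr11:96000001-98000000, mm9) held 108 peaks in clone D, 117 in clone C8 and 121 in wild type. The next (chr11:68000001-70000000) held 96, 105 and 109. On chromosome 19 the densest windows were chr19:4000001-6000000, with 98, 111 and 124 peaks in clone D, clone C8 and wild type, and chr19:44000001-46000000, with 73, 86 and 93. The clone counts in these 4 windows were close to those of wild type, with a clone mean of 0.843 to 0.930 of the wild-type count.

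The 2 sparsest windows of each chromosome looked different. In chr11:38000001-40000000 there was 1 peak in clone D, 1 in clone C8 and 6 in wild type, and in chr11:36000001-38000000 there were 2, 5 and 7. On chromosome 19, chr19:48000001-50000000 held 2, 2 and 4 peaks, and chr19:50000001-52000000 held 2, 2 and 11. The sparsest windows thus lay side by side on each chromosome, and their clone counts were 0.167 to 0.5 of the wild-type count. They were picked by the mean over the 3 lists, which includes the low clone counts. Not every sparse window was alike. In chr19:26000001-28000000 there were 9, 10 and 10 peaks in clone D, clone C8 and wild type, a clone mean of 0.95 of the wild-type count.

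Among windows with at least 20 wild-type peaks, the clones were lowest against wild type in chr11:12000001-14000000, with 5 peaks in clone D, 6 in clone C8 and 22 in wild type. The next lowest on chromosome 11 was chr11:40000001-42000000, with 9, 12 and 24 peaks. On chromosome 19 the lowest were chr19:14000001-16000000 (10, 9 and 21 peaks in clone D, clone C8 and wild type) and chr19:18000001-20000000 (13, 13 and 21). The highest were chr11:108000001-110000000, with 22, 24 and 22 peaks, and chr11:80000001-82000000, with 21, 28 and 24. On chromosome 19 they were chr19:16000001-18000000 (26, 22 and 25 peaks) and chr19:56000001-58000000 (45, 43 and 46).

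The gap between clones and wild type was therefore examined by how dense a window is. The 86 windows were put in 3 groups of 29, 28 and 29 by the count of the other clone. In the 29 windows where clone C8 was sparsest (up to 9.5 peaks per Mb), clone D had 313 peaks and wild type 539, a ratio of 0.581. In the middle and densest groups the ratio was 0.870 and 0.840. Grouped by clone D, the ratio of clone C8 to wild type was 0.665 in the sparsest group, 0.914 in the middle and 0.912 in the densest. On chromosomes 3 and 12 the corresponding ratios were 0.359, 0.681 and 0.815 for clone D and 0.405, 0.762 and 0.834 for clone C8. The counts of the clones follow each other closely, so windows low in one tend to be low in the other. Grouped by the wild-type count instead, a grouping added after the data were seen, the ratio on chromosomes 11 and 19 was 0.652, 0.827 and 0.840 for clone D and 0.743, 0.865 and 0.914 for clone C8, sparsest group first. In both groupings the ratio was lowest in the sparsest windows, and the gap was narrower when wild type chose them.

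Neighbouring CTCF peaks lay closer together on chromosomes 11 and 19. The median distance between midpoints of adjacent peaks was 20.5 kb in clone D, 18.9 kb in clone C8 and 18.1 kb in wild type, against 29.2, 29.3 and 28.3 kb on chromosomes 3 and 12. The ratio of the medians was 0.702 in clone D, 0.646 in clone C8 (mean 0.674 ± 0.0394, SD, n = 2) and 0.640 in wild type, below 1 in 3 of 3 libraries (exact sign-flip permutation test, two-sided p = 0.25). Chromosome 11 had the shortest median of all autosomes in each library, at 19.1, 17.8 and 17.3 kb in clone D, clone C8 and wild type. Chromosome 19, at 24.1, 22.9 and 20.5 kb, was in place 18 of 19 in wild type and place 14 in both clones, counted from the longest.

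Distances under 5 kb made up 18.6% of those on chromosomes 11 and 19 in clone D (610 of 3276), 19.8% in clone C8 (699 of 3524) and 21.4% in wild type (857 of 4009). On chromosomes 3 and 12 the shares were 14.7%, 14.8% and 16.5%. Long distances, over 200 kb, made up 4.52%, 4.37% and 4.17% on chromosomes 11 and 19 in clone D, clone C8 and wild type, against 9.88%, 10.8% and 9.73% on chromosomes 3 and 12. The mean distance on chromosomes 11 and 19 was 54.03 kb in clone D, 50.2 kb in clone C8 and 44.1 kb in wild type, well above the medians, since a few long distances stand beside many short ones.

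**Figure D3:**
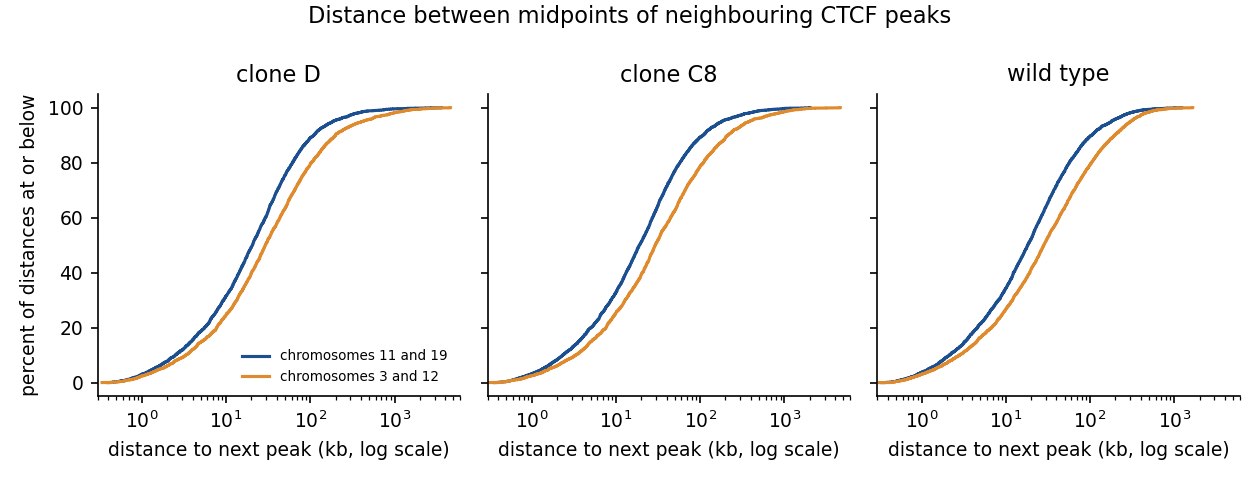
Cumulative percent (y axis) of distances between midpoints of neighbouring CTCF peaks within a list (x axis, kb, log scale), for chromosomes 11 and 19 in blue and 3 and 12 in orange. The blue curve is shifted to shorter distances in each library, with medians of 20.5, 18.9 and 18.1 kb against 29.2, 29.3 and 28.3 kb in clone D, clone C8 and wild type.

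The longest peak-free stretches were held by the clones. On chromosome 11 clone D had no peak between 12711589 and 16312660, where clone C8 had 6 peaks and wild type 28. The longest stretch of clone C8 began at almost the same place, 12711609, and ended at 14734081, with 14 wild-type peaks inside. On chromosome 19 clone D had none from 50333893 to 52796184, where clone C8 had 1 peak and wild type 9. The longest stretch of wild type was shorter: 1025 kb on chromosome 11, with 1 peak in each clone inside, and 1231 kb on chromosome 19, with 2 clone D peaks and 4 clone C8 peaks inside.

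Over all lists together, the widest distances between neighbouring regions were 986 kb and 801 kb on chromosome 11 and 841 kb and 760 kb on chromosome 19, against 1362 and 984.0 kb on chromosome 3. The widest on chromosome 11 ran from a region of both clones (chr11:110398823-110399316) to a region of all 3 lists (chr11:111384828-111385265). The second lay between chr11:38560945-38561441 and chr11:39361851-39362185. On chromosome 19 the widest lay between chr19:49418318-49418693, a wild-type-only region, and chr19:50259656-50260316, a region of all 3 lists. The next lay between 2 wild-type-only regions, chr19:19454990-19455356 and chr19:20215289-20215644.

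Peak strength was read from column 7 of each list, the authors' fold enrichment by the layout of the file, and compared only within a list. In the clones the peaks of chromosomes 11 and 19 were about as strong as those of chromosomes 3 and 12. Median enrichment on chromosomes 11 and 19 reached 17.8 (clone D) and 21.96 (clone C8), against 17.3 and 21.96 on chromosomes 3 and 12. In the wild-type list it was 27.6 on chromosomes 11 and 19 and 21.4 on chromosomes 3 and 12. The ratio was 1.03 in clone D, 1.00 in clone C8 and 1.29 in wild type (exact sign-flip permutation test, two-sided p = 0.50). With equal medians in clone C8, that p was the smallest the test could give. Chromosomes 11 and 19 had the highest and second highest wild-type medians of the 19 autosomes, at 27.8 and 27.3. In clone D they took places 9 and 5. In clone C8 both took place 4, shared with chromosomes 6, 9, 10 and 18 at the same median of 21.96.

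The chromosome pairs differed at the weak end of the wild-type list. The weakest 10% of the wild-type list supplied 5.31% of its peaks on chromosomes 11 and 19 (213 of 4011), against 13.4% on chromosomes 3 and 12 (502 of 3753). In clone D the weakest 10% supplied 9.98% and 10.8%, and in clone C8 7.26% and 8.59%. At the strong end the pairs were close: the strongest 10% supplied 9.09%, 9.98% and 11.4% on chromosomes 11 and 19 in clone D, clone C8 and wild type, and 10.8%, 10.9% and 10.4% on chromosomes 3 and 12. With lists cut to equal length by enrichment, the wild-type ratio of medians was 1.00, and those of clone D and clone C8 were 1.03 and 0.968. Median peak width differed little between the pairs, at 489, 415 and 412 bp on chromosomes 11 and 19 in clone D, clone C8 and wild type and 505, 418.5 and 412 bp on chromosomes 3 and 12.

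Counting weak and strong peaks apart showed where the wild-type list departed from the clones. Peaks with the authors' −log10 p of 20 or more reached 9.33 per Mb in clone D, 9.06 in clone C8 and 8.94 in wild type on chromosomes 11 and 19, against 5.01, 4.74 and 4.81 on chromosomes 3 and 12. Their ratios were 1.86, 1.91 and 1.86. Peaks of 10 to under 20 had ratios of 1.91, 1.86 and 2.11. Weak peaks, of 5 to under 10, reached 4.63, 5.90 and 7.98 per Mb on chromosomes 11 and 19 in clone D, clone C8 and wild type, against 2.53, 3.03 and 6.36 on chromosomes 3 and 12. These weak peaks had ratios of 1.83 (clone D), 1.94 (clone C8) and 1.25 (wild type).

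The weak wild-type peaks thus followed the dense chromosomes less closely than any other −log10 p class of the 3 libraries. Each of the 86 windows of chromosomes 11 and 19, and each of the 135 of chromosomes 3 and 12, held at least 1 of them. Peaks of −log10 p 20 or more were missing from 4, 4 and 5 of the 86 windows in clone D, clone C8 and wild type, and from 15, 14 and 15 of the 135. Every −log10 p class had a ratio above 1 in 3 of 3 libraries (exact sign-flip permutation test, two-sided p = 0.25 for each).

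**Figure D4:**
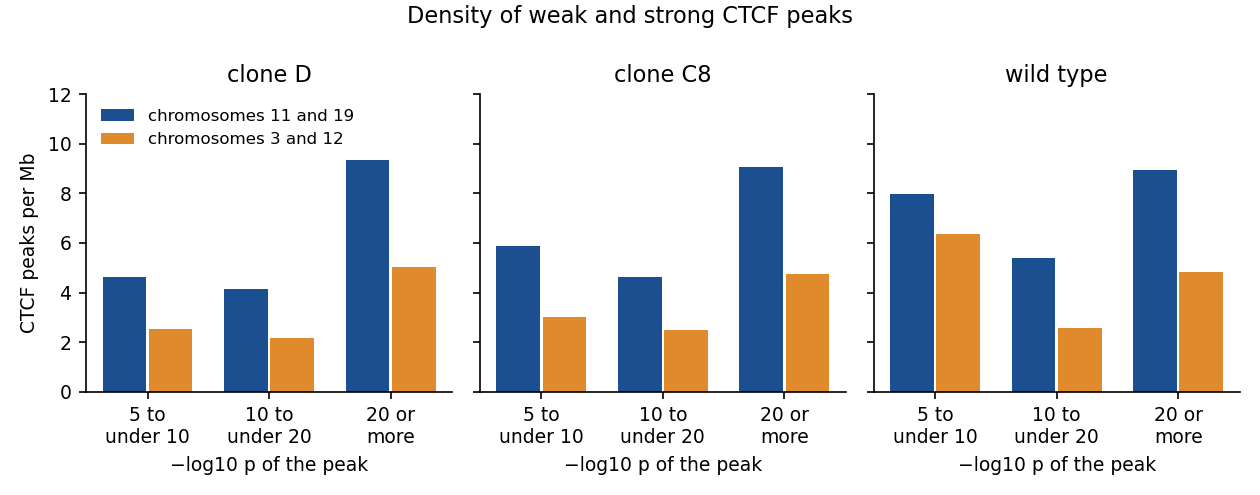
CTCF peaks per Mb (y axis, bars from 0) by the authors' −log10 p of the peak (x axis), on chromosomes 11 and 19 (blue, left bar) and chromosomes 3 and 12 (orange, right bar) in each library. Strong peaks show a like ratio in all libraries (1.86, 1.91 and 1.86), while the weak wild-type bars are closer in height, at 7.98 and 6.36 per Mb.

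Most peaks of chromosomes 11 and 19 were held by more than 1 list. Wild type overlapped 86.9% of the clone D peaks there (2848 of 3278, exact 95% interval 85.7 to 88.02) and 84.3% of the clone C8 peaks (2971 of 3526, 83.02 to 85.4). On chromosomes 3 and 12 the shares were 85.4% (84.02 to 86.7) and 82.6% (81.2 to 84.0). The difference came to 1.46 percentage points (clone D) and 1.65 (clone C8) (mean 1.56 ± 0.132, SD, n = 2). Peaks overlapped by no wild-type peak were 13.1% in clone D (430) and 15.7% in clone C8 (555), beside 14.9% and 18.6% over all chromosomes. Between the clones, clone C8 overlapped 89.5% of the clone D peaks on chromosomes 11 and 19 and clone D overlapped 83.6% of the clone C8 peaks, against 86.9% and 82.4% on chromosomes 3 and 12.

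Started from the wild-type list, the gap between the chromosome pairs was wider. Both clones overlapped 68.1% of the wild-type peaks on chromosomes 11 and 19 (2732 of 4011, 66.6 to 69.6), against 56.8% on chromosomes 3 and 12 (2130 of 3753, 55.2 to 58.3), a difference of 11.4 points. Clone D alone overlapped 71.3% and clone C8 alone 74.1% on chromosomes 11 and 19, against 60.4% and 61.6% on chromosomes 3 and 12. Chromosomes 19 and 11 ranked first and second of the 19 autosomes for the share found in clone D, and 11 and 19 for the share found in clone C8. Wild-type peaks overlapped by neither clone were 22.7% (911 of 4011, 21.4 to 24.04), against 34.8% on chromosomes 3 and 12 and 31.4% over all chromosomes. With peaks of a −log10 p of at least 10 in every list, the difference in the share found in both clones was −0.663 points, and with a false discovery rate of at most 0.05 it was 0.179.

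The difference became smaller when peaks of equal strength were compared. The share expected for a peak was taken from all autosomal peaks of its list in 50 bins of enrichment. Those peaks include the ones on chromosomes 11 and 19. Peaks of equal enrichment were assigned to bins by list order, sorted by chromosome name as text, so strength was matched only roughly where values were tied. Tied peaks of chromosomes 11, 12 and 19 went to lower bins than those of chromosome 3. This tends to lower the share expected on chromosomes 11, 12 and 19, by an amount that was not measured. Clone D was then expected to overlap 70.7% of the wild-type peaks on chromosomes 11 and 19, which left 0.565 points, and clone C8 73.05%, which left 1.05 points. The clone peaks were found in wild type 1.24 points (clone D) and 1.82 points (clone C8) more often than expected. The comparison pair, chromosomes 3 and 12, also exceeded expectation, by 1.00 (clone D) and 0.773 (clone C8). Within that pair, chromosome 12 stood at 3.57 (clone D, the highest autosome) and 3.28 (clone C8). Chromosome 3 lay below expectation, at −1.23 (clone D) and −1.33 (clone C8). Over the 19 autosomes these differences ran from −2.93 to 2.68 points for wild-type peaks in clone D and from −6.13 to 3.39 for clone C8 peaks in wild type, and the highest value of each was that of chromosome 19. Chromosome 11 had −0.294 and 1.18 points, so the pooled values join unlike chromosomes. No test of these differences was made, since peaks of 1 library are not replicates.

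By strength class, overlap was low for weak and complete for the strongest wild-type peaks on both pairs. Peaks of equal enrichment were again assigned to classes by list order, with the same order of chromosomes. In the weakest of 10 strength classes of the wild-type list, clone D overlapped 8.84% and clone C8 14.4% of the 215 peaks on chromosomes 11 and 19, against 8.75% and 7.55% of the 503 peaks on chromosomes 3 and 12. In class 3 the shares were 30.1% and 35.05% on chromosomes 11 and 19, against 24.1% and 26.5%. In class 5 the order was turned round, and the shares were 60.6% and 67.2% on chromosomes 11 and 19, against 65.7% and 69.8%. In class 10, the strongest, both clones overlapped all 441 peaks on chromosomes 11 and 19 and all 387 on chromosomes 3 and 12. The classes between were not all alike on both pairs, and their differences were not tested.

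Regions held by all 3 lists were the largest class on chromosomes 11 and 19, with 2710 of 4750 regions (57.1%, 55.6 to 58.5). Their share was 47.7% on chromosomes 3 and 12 and 49.5% over all chromosomes. They reached 15.01 per Mb on chromosomes 11 and 19, against 7.76 on chromosomes 3 and 12, a ratio of 1.93. Regions of both clones and not wild type numbered 210 (4.42%, 3.85 to 5.04; with clone D or clone C8 left out, regions of the other clone and not wild type numbered 555 and 430), against 3.97% on chromosomes 3 and 12 and 4.48% over all chromosomes, and their density ratio was 1.83. Regions of clone D only numbered 217 (4.57%, beside 4.702% over all chromosomes) and of clone C8 only 342 (7.2%, beside 7.94%), with density ratios of 1.502 and 1.72. Those of clone C8 and wild type numbered 236 (4.97%, beside 4.54% over all chromosomes), with a density ratio of 1.97. Those of clone D and wild type numbered 124 (2.61%, beside 2.70%), with a density ratio of 1.36.

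Wild-type-only regions had the density ratio nearest to 1. They numbered 911 on chromosomes 11 and 19 (19.2% of the regions there, 18.1 to 20.3), against 29.4% on chromosomes 3 and 12 and 26.2% over all chromosomes. That was 5.14 per Mb, against 4.75 per Mb on chromosomes 3 and 12, a ratio of 1.08. By chromosome they reached 5.41 per Mb on chromosome 11 and 4.57 on chromosome 19, against 4.42 on chromosome 3 and 5.20 on chromosome 12. Chromosome 11 was in place 1 of 19 autosomes by regions of all 3 lists and in place 2 by wild-type-only regions, while chromosome 19 was in places 2 and 13. Of the 911, 823 (90.3%) had a −log10 p under 10 and 2 had one of 20 or more. The ratio near 1 did not hold when every list was cut to a −log10 p of at least 10 and regions were formed again. Wild-type-only regions on chromosomes 11 and 19 then numbered 278, with a density ratio of 2.23. The 278 are not a subset of the 911, most of which fell below the cut. They include regions where a clone had a weaker peak that the cut removed, so they are not all sites without a clone peak.

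**Figure D5:**
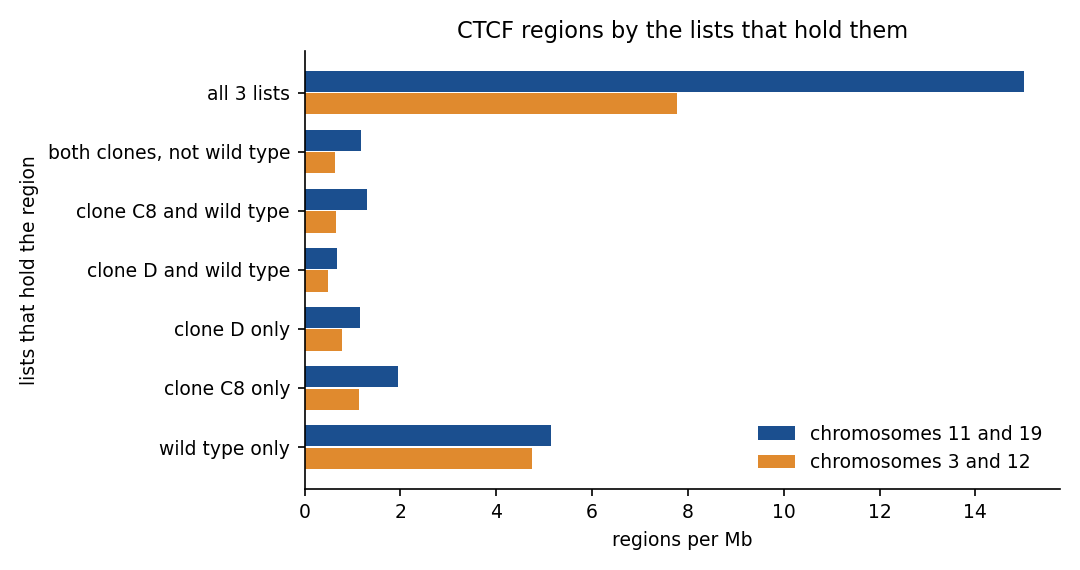
CTCF regions per Mb (x axis, bars from 0) by the lists that hold them (y axis), on chromosomes 11 and 19 (blue, upper bar) and chromosomes 3 and 12 (orange, lower bar). Regions of all 3 lists reach 15.01 against 7.76 per Mb, while wild-type-only regions reach 5.14 against 4.75.

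Within chromosomes 11 and 19, wild-type-only regions were found in windows of every density. In the 29 windows with the fewest clone peaks they reached 4.33 per Mb, in the middle 28 windows 3.804 and in the 29 with the most 7.24. Regions of all 3 lists reached 4.24, 12.3 and 28.4 per Mb in the same window groups. No window of the 86 lacked a wild-type-only region, and the counts per window ran from 3 to 22 on chromosome 11 and from 2 to 22 on chromosome 19.

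Wild-type-only regions also lay farther from shared sites than the regions of both clones that wild type lacked. The median distance to the nearest region of all 3 lists was 23.3 kb for the 911 wild-type-only regions on chromosomes 11 and 19 (quartiles 7.34 and 78.9), and 14.4 kb for the 210 regions of both clones and not wild type (quartiles 4.65 and 36.9). Of the wild-type-only regions 31.2% lay within 10 kb of such a site and 21.5% beyond 100 kb. Of the regions of both clones 40.0% lay within 10 kb and 8.57% beyond 100 kb. On chromosomes 3 and 12, where shared sites are fewer, the medians were 69.8 kb for wild-type-only regions and 29.3 kb for regions of both clones. The regions of all 3 lists had a median spacing of 23.8 kb among themselves on chromosomes 11 and 19 and 34.4 kb on chromosomes 3 and 12.

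Sites shared by all lists were of ordinary strength on chromosomes 11 and 19. Among the 23933 such regions of the genome, ranked by enrichment within each list, the 2710 on chromosomes 11 and 19 had a median percentile of 49.1 in clone D, 48.9 in clone C8 and 51.7 in wild type. The 2119 on chromosomes 3 and 12 had 50.6, 51.3 and 51.7. The strongest 10% held 244 of the 2710 in clone D (9.004%), 256 in clone C8 (9.45%) and 255 in wild type (9.41%), and 86 regions were in it in all 3 lists. The shared sites of chromosomes 11 and 19 were thus more numerous per Mb, with median percentiles near the middle of the list.

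The strongest shared sites of chromosome 11 ranked high in each list, with equal values given the best rank. The first, chr11:78266967-78267697, had enrichments of 93.3 in clone D (rank 12 of 29769), 130 in clone C8 (rank 15 of 32308) and 167 in wild type (rank 24 of 40271). The second, chr11:69392616-69393309, ranked 70, 73 and 36 in clone D, clone C8 and wild type. The third, chr11:120637198-120637920, ranked 122, 211 and 100. On chromosome 19, chr19:41145817-41146466 ranked 246, 152 and 123, chr19:9990240-9990743 ranked 73, 188 and 298, and chr19:45294995-45295457 ranked 587, 239 and 595.

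The strongest regions of both clones that wild type lacked were of middle rank on chromosome 11. The first, chr11:68807904-68808425, was enriched 23.05-fold in clone D and 31.0-fold in clone C8, with −log10 p values of 18.6 and 25.3. It was followed by chr11:28510578-28511260, with enrichments of 17.3 and 31.0, and chr11:25643510-25644099, with 15.6 and 20.7. On chromosome 19 the first was chr19:32586932-32587469, enriched 31.3-fold in clone D and 40.05-fold in clone C8, with −log10 p values of 37.2 and 31.8. The next were chr19:13893319-13893837, with 15.6 and 19.4, and chr19:46681815-46682358, with 19.2 and 18.1.

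The strongest wild-type-only peaks likewise lay below the top of their list. The first on chromosome 11, chr11:97806842-97807206, was enriched 39.7-fold (−log10 p 21.8) and took rank 10610 of 40271. It was followed by chr11:102954083-102954402 and chr11:50248339-50248625, with enrichments of 33.7 and 31.7. On chromosome 19 the strongest were chr19:53895558-53896084, enriched 37.7-fold (−log10 p 22.6), then chr19:43997494-43997906 (29.2) and chr19:4045018-4045589 (25.8).

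Regions of a lone clone were weak on both chromosomes. The strongest of clone D only were chr11:98193503-98193898, with an enrichment of 15.8, and chr19:29625021-29625486, with 14.8. Those of clone C8 only were chr11:103417261-103417805, with 28.4, and chr19:5076073-5076519, with 21.3. A −log10 p of 20 or more was reached by 0 of the 217 regions of clone D only and by 1 of the 342 of clone C8 only.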

How the data were processed

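CTCF ChIP-seq peak lists of clone D, clone C8 and wild type (1 library each) were used, and the 3 input libraries were left aside. The submitters' processing notes name Bowtie 1.0.0, bcl2fastq 1.8.4 and build mm9. Not given in the sources used here are the peak caller, its settings and its use of inputs. The deposited data hold 1 list per library, with a fold enrichment (ratio) in column 7. Column 8 of the deposited lists holds a −log10 p with a lowest value of 5. Column 9 of the deposited lists holds a false discovery rate, used as the authors' q-value for 1 threshold. The columns have no header, so these units were read from the broadPeak layout and the values, and what the enrichment is relative to is not stated.

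Peaks were counted by midpoint. Peaks overlapping by at least 1 bp were shared, and connected peaks formed regions. Intervals are exact (Clopper-Pearson, 95%) and cover counting error only. Depth is unknown. The members, measures, rules and lists were chosen with earlier results of these data known. Regions named are, per chromosome, the 3 strongest of all 3 lists, of wild type only and of both clones, the strongest of each clone alone, the 2 densest and sparsest windows, the 2 windows at each end of the clone to wild-type share of list, and the 2 widest distances. Strength over several lists is the worst rank by enrichment among them. The longest stretch of each list was chosen after its value was seen. Alternatives were overlap rules, thresholds, other windows and chromosomes, strength bins and leaving out each clone.

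No mm9 sequence or annotation was used, so positions (1-based) carry no gene names. RefSeq genes of GRCm38.p6 served only for gene spacing. Python 3.11.15, pandas 2.3.3, numpy 2.4.6, SciPy 1.17.1 and matplotlib 3.10.9 were used. The code was tested on simulated data, and bedtools 2.31.1 gave equal overlap counts in 12 of 12 comparisons.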

Additional observations from a re-analysis of the deposited data

How the results depend on the processing

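Of 71 values under an alternative, 44 kept their direction and stayed within any limit set, 23 moved and 4 reversed. The limit was the SD between the clones for shares and a factor of 1.5 for counts. Ratios had no limit of size and were judged by direction alone. The density ratio (mean over libraries) stayed between 1.54 and 1.92 over 8 alternatives and the spacing ratio between 0.623 and 0.775 over 7. The ratio of median enrichments, 1.10 as deposited, was 0.998 with lists of equal length by enrichment, 0.991 at a −log10 p of at least 10 and 0.992 under a false discovery rate limit of 0.05. For wild-type peaks that both clones overlapped, the difference between the chromosome pairs (11.4 points) was 0.355, −0.663 and 0.179 under these thresholds, which by construction remove weak peaks, 8.29 against all other autosomes, and 10.9 to 12.5 with 1 clone left out. The difference for clone peaks that wild type overlapped (1.56 points) was 2.41, 1.39 and 2.06 under the thresholds, 1.96 with peaks extended by 500 bp, 2.46 against all other autosomes and 1.77 for chromosome 19 alone. At equal strength, wild-type peaks in clone D differed by 0.0659 points with a reciprocal overlap of 50%, 1.02 with extension and 1.09 with bins of −log10 p. Those in clone C8 differed by 1.67 with extension and 1.72 with bins of −log10 p, and clone C8 peaks in wild type by 2.41 with bins of −log10 p and 2.25 with 10 bins. Wild-type-only regions on chromosomes 11 and 19, formed again, numbered 457, 278 and 88 under the thresholds, against 362, 193 and 66 on chromosomes 3 and 12. Regions of both clones and not wild type numbered 479 under the rate limit, against 405. On chromosomes 11 and 19 that limit kept 95.3% of clone D peaks, 86.2% of clone C8 peaks and 61.3% of wild-type peaks. On chromosomes 3 and 12 it kept 94.6%, 86.2% and 50.7%. It thus took most from wild type there. With 1 clone left out, the class is that of the other clone and not wild type, which is wider by definition. It numbered 430 for clone D and 555 for clone C8. The cause of the other moves was not tested. The rate threshold was added after seeing the data. No paired analysis of clones against wild type was possible, since wild type has 1 library and the labels give no replicate numbers.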

Other observations

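Chromosome 7 had the shortest mean distance between neighbouring protein-coding gene starts of all autosomes in the RefSeq table, 71.7 kb, but its CTCF density was below that of chromosomes 11 and 19, at 13.04, 14.1 and 17.1 peaks per Mb in clone D, clone C8 and wild type. Chromosome 3 had the highest median enrichment of the 19 autosomes in both clones (18.9 in clone D and 23.3 in clone C8) while it lay last and second last by density. In wild type its median of 21.8 was in place 12, shared with chromosomes 1, 4, 6 and 13. Chromosome 12, the other gene-poorer autosome, had the lowest median of all autosomes in clone D, at 15.6, so chromosomes 3 and 12 lay at opposite ends of the clone D list. These values were picked after they were seen, and no test was made.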
